A study of Mus musculus with 15 samples.

Results

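The genes of the brain lecticans, their link proteins and tenascin-R were followed across 2 brain regions, the cerebellum (Ce) and the striatum (St), in mice selectively bred for long distances run on wheels (Hi) and in mice of an unselected control line (Co). The 9 genes, Acan, Bcan, Ncan, Vcan, Hapln1, Hapln2, Hapln3, Hapln4 and Tnr, were taken by symbol from a table of 26628 genes, without regard to their values. All were present, and 8 of them passed the filter on low values. Hapln3 did not. RNA was sequenced from 4 CeCo, 4 CeHi, 4 StCo and 3 StHi samples of male Hsd:ICR mice, the authors having set aside a further StHi sample after a principal component analysis. All mice, of both lines, had been housed singly with a running wheel in the days before sampling, so no group lacked wheel access. The labels give their age as 6 weeks, and the study's methods give a slightly later one. Each kind of line was represented by 1 line, and a difference between Hi and Co mice is therefore also a difference between these particular lines. The lines are named here as the deposited labels name them. The sources used here differ on which line was the higher for some genes, Spp1 among them, and this was not settled, so each direction between lines holds for the samples as labelled. Nothing states whether the Ce and St samples came from the same mice. The p-values and intervals rest on the spread between samples within groups, pooled for each gene over the 4 groups of both regions.

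Lecticans are chondroitin sulfate proteoglycans. Their N-terminal domain binds the long sugar chain hyaluronan, a link protein of the Hapln family clamps that contact, and their C-terminal lectin domain binds tenascins, so that the oligomeric tenascin-R can crosslink neighbouring proteoglycans. The condensed form of this matrix around the soma and proximal dendrites of certain neurons, among them many parvalbumin interneurons of the forebrain and the large neurons of the deep cerebellar nuclei, is the perineuronal net. A looser form fills the space around synapses and nodes of Ranvier. Aggrecan (Acan) is the usual marker of nets, brevican (Bcan) and neurocan (Ncan) are the abundant lecticans of the nervous system, and versican (Vcan) is made in part by cells of the oligodendrocyte lineage. Hapln1 and Hapln4 are link proteins of nets, Hapln2 is known from nodes of Ranvier, and Hapln3 is the family member least tied to the brain.

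The 4 link protein genes each lay next to a lectican gene in the GRCm38 annotation (GENCODE M21), with no protein-coding gene between them. Acan (chr7:79053483-79115099, plus strand) and Hapln3 (chr7:79115102-79131018, minus strand) converged, with 2 bases between them. Ncan (chr8:70093085-70120873, minus strand) and Hapln4 (chr8:70083457-70090862, plus strand) converged over a gap of 2222 bases. Vcan (chr13:89655312-89742509, minus strand) and Hapln1 (chr13:89539796-89611652, plus strand) converged over a gap of 43659 bases. Bcan (chr3:87987531-88000230) and Hapln2 (chr3:88021750-88027583) were both on the minus strand, 21519 bases apart. Tnr (chr1:159523769-159931729, plus strand) had no such neighbour. An antisense gene, Gm38039, overlaps exons of Tnr. Because strand was not stated for the counting, reads of that pair cannot be told apart, and 2.71% of the 50-base windows of Tnr transcripts also occurred in another gene. For each other gene of the set this share was at most 0.644%.

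Upstream sequence is shown where enough of the promoter window lay before the first annotated exon, which held for Acan, Ncan, Tnr and Hapln2. The choice did not rest on expression. Acan, Ncan and Tnr were higher in the St, and Hapln2 did not pass the region test. Bcan and Hapln1, also higher in the St, are not shown for lack of such a stretch. RefSeq promoter windows (build GRCm38.p6, 250 bases before to 50 bases after the start) were found for 8 of the 9 genes, Hapln4 being the one not matched. Printed below is the stretch that ends before the first annotated exon, 5′ to 3′ on the strand of the gene. Capitals mark each match, on either strand, to the GC box core GGGCGG or to the SOX core ACAAAG. The Acan stretch also overlaps another annotated gene, Gm26633.
Acan, chr7:79052976-79053225, plus strand: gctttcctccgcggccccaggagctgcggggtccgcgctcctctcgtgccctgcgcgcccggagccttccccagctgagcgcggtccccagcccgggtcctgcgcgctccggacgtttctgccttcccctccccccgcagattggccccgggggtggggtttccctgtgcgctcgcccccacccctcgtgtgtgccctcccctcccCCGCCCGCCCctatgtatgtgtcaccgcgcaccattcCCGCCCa
Ncan, chr8:70120874-70121094, minus strand: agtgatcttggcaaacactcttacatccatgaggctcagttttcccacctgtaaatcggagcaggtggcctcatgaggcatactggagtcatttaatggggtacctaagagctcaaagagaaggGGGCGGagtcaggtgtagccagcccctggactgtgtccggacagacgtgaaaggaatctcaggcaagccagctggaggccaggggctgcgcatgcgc
Tnr, chr1:159523519-159523728, plus strand: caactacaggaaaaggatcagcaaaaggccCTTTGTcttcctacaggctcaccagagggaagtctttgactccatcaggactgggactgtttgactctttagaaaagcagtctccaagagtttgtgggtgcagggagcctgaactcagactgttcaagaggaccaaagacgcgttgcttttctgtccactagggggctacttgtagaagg
Hapln2, chr3:88027584-88027761, minus strand: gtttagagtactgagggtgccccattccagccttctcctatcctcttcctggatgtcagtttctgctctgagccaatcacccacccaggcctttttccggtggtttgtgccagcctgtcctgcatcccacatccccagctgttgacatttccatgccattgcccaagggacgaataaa
The starts differed in base composition. The whole 300-base window of Acan was 74.0% G or C with 31 CG dinucleotides and that of Bcan 64.0% with 24, against medians of 52.7% and 7 over all promoters. At the other end were Tnr, at 48.0% with 3 CG dinucleotides, and Hapln2, at 52.0% with 2. GGGCGG was present in the windows of Acan, Bcan, Ncan and Vcan and in none of the 3 matched link protein genes, and 35.7% of all promoter windows held it. ACAAAG was present in that of Tnr alone, against 18.7% of all windows. These matches are letters in a window, and the data hold no measure of binding.

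The deposited values are fragment counts divided by a factor per sample, called normalized counts here. They were not divided by gene length, so levels of different genes are compared per kilobase of merged exon. Totals were 38499264 to 43669012 normalized counts per sample, and 1 fragment was worth between 0.841 and 1.30 normalized counts. Cerebellar markers were all higher in the Ce (12 of 12 tested) and striatal markers all higher in the St (11 of 11), in both lines. The St samples also held cortical pyramidal neuron markers, which summed to between 14141 and 21176 normalized counts in the St samples and between 2302 and 2796 in the Ce samples. Summed choroid plexus markers ranged from 1430 to 117453 among the Ce samples.

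Per kilobase, Hapln4 had the highest level of the 9 genes in the Ce, followed by Bcan, Hapln2, Vcan, Tnr, Ncan, Hapln1, Acan and Hapln3. In CeCo samples Hapln4 stood at 2049 ± 59.6 normalized counts per kilobase (SD, n = 4) and Bcan at 1508 ± 48.5 (SD, n = 4). At the lower end of the same scale Acan stood at 7.42 ± 1.42 and Hapln3 at 2.47 ± 1.12. CeHi samples had the same order, and in both lines Vcan and Tnr were the single pair of neighbours in the order whose samples overlapped.

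The order in the St was Bcan, Ncan, Hapln4, Hapln2, Tnr, Hapln1, Vcan, Acan and Hapln3, again in both lines. In StCo samples Bcan stood at 2212 ± 180.0 normalized counts per kilobase (SD, n = 4), Ncan at 967 ± 34.0 and Hapln4 at 817 ± 122. Ncan and Hapln4 overlapped in both lines, as did Tnr and Hapln1. Hapln4 and Hapln2 overlapped in the StHi samples, where Hapln4 ranged from 551 to 1066 normalized counts per kilobase. Acan, the usual marker of nets, thus ranked above Hapln3 alone in each group of whole-region RNA.

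**Figure D1:**
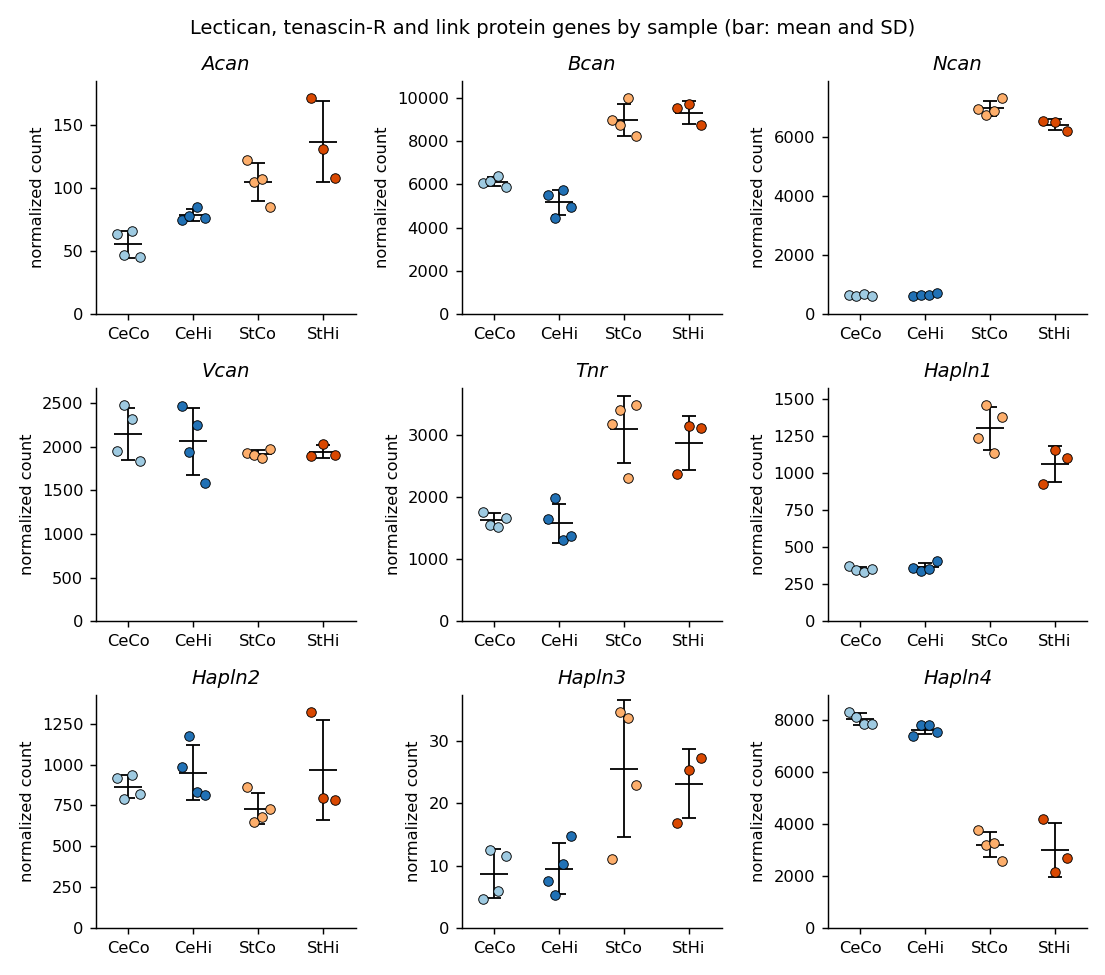
Normalized counts (vertical axis, from 0) of each of the 9 genes in every sample of the 4 groups, with 1 point a sample and a bar for the mean and SD. Ncan lies between 621 and 726 in the 8 Ce samples and between 6204 and 7304 in the 7 St samples, Hapln4 is higher in the Ce, and Vcan and Hapln2 overlap between all groups.

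Regions were compared within each line. Of the 8 genes tested, 6 differed between the Ce and St in both lines with the same direction, Acan, Bcan, Ncan, Hapln1 and Tnr being higher in the St and Hapln4 higher in the Ce. Regional differences were common across the table, 74.7% of all tested genes differing between CeCo and StCo and 70.5% between CeHi and StHi (limma, Benjamini-Hochberg adjusted p under 0.05), so the count of 6 in 8 is near this background. Over all tested genes, 36.9% were lower in the Ce in the control line and 35.1% in the selected line, and 37.8% and 35.4% were higher. For the same 6 genes the samples of the regions did not overlap within a line, as for 69.9% of all tested genes in the control line and 68.3% in the selected line. Over the 8 tested genes the median log2 difference (Ce minus St) was -0.74 in the control line and -0.82 in the selected line, against 0.012 over all tested genes in each.

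Ncan showed the largest regional difference. It was measured at 650, 633, 671 and 621 normalized counts in the CeCo samples, and at 6936, 6729, 6875 and 7304 in the StCo samples. The CeHi samples had 628, 645, 654 and 726, and the StHi samples 6549, 6487 and 6204. All 7 St samples were thus far above all 8 Ce samples, and the spread within each group was small. On the log2 scale Ncan was lower in the Ce by -3.44 ± 0.05 in the control line (SE, limma adjusted p = 4.51e-18), a 10.8-fold difference. In the selected line the log2 difference was -3.28 ± 0.06 (limma adjusted p = 3.99e-17), a 9.70-fold difference.

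Hapln1, a link protein of nets, was also higher in the St. Its values were 370, 342, 334 and 354 normalized counts in CeCo, 357, 339, 355 and 408 in CeHi, 1237, 1460, 1136 and 1380 in StCo, and 925, 1159 and 1101 in StHi. The regions did not overlap. Its log2 difference, Ce minus St, was -1.89 ± 0.09 in the control line (limma adjusted p = 4.53e-12) and -1.54 ± 0.10 in the selected line (limma adjusted p = 2.62e-10), or 3.71-fold and 2.91-fold.

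The 3 other genes that were higher in the St differed less. Tnr, the crosslinking glycoprotein, had 1761, 1551, 1515 and 1658 normalized counts in CeCo, 1645, 1978, 1299 and 1362 in CeHi, 3180, 3392, 2298 and 3476 in StCo, and 2370, 3139 and 3100 in StHi. The lowest St value was above the highest Ce value. The log2 difference was -0.92 ± 0.15 in the control line (limma adjusted p = 4.54e-05) and -0.88 ± 0.16 in the selected line (limma adjusted p = 0.000156).

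Bcan, an abundant lectican of the adult brain, was measured at 6083, 6154, 6374 and 5897 normalized counts in CeCo and at 8973, 8769, 9980 and 8231 in StCo. In the selected line it had 5536, 4433, 5729 and 4974 in CeHi and 9538, 9696 and 8731 in StHi. No Ce sample reached the lowest St sample. The log2 difference was -0.55 ± 0.08 in the control line (limma adjusted p = 3.80e-06) and -0.86 ± 0.08 in the selected line (limma adjusted p = 5.22e-08).

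Acan, with the fewest fragments of the 8 genes (51 to 135 per sample), had 63.4, 47.3, 65.7 and 45.4 normalized counts in CeCo and 122, 105, 107 and 85.0 in StCo. Its values were 74.8, 78.1, 85.2 and 76.1 in CeHi and 171, 131 and 108 in StHi. Within each line the regions were separate, although the highest CeHi sample slightly exceeded the lowest StCo sample. The log2 difference, Ce minus St, was -0.92 ± 0.17 in the control line (limma adjusted p = 0.000111) and -0.77 ± 0.18 in the selected line (limma adjusted p = 0.00121).

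Hapln4 went the other way. It was measured at 8328, 8133, 7848 and 7851 normalized counts in CeCo and at 7417, 7805, 7805 and 7573 in CeHi, against 3760, 3195, 3269 and 2593 in StCo and 4183, 2163 and 2685 in StHi. Every Ce sample was above every St sample, and the St samples were the more variable, with a coefficient of variation of 34.8% in StHi against 2.48% in CeHi. Its log2 difference, Ce minus St, was 1.33 ± 0.15 in the control line (limma adjusted p = 1.44e-06), or 2.52-fold, and 1.40 ± 0.16 in the selected line (limma adjusted p = 2.42e-06), or 2.63-fold. Since Ncan, its neighbour on chromosome 8, was lower in the Ce, the ratio of Hapln4 to Ncan per kilobase was 22.9 ± 0.995 in CeCo and 0.847 ± 0.143 in StCo (SD, n = 4 each).

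Vcan and Hapln2 did not pass the region test in either line. Vcan ranged from 1584 to 2478 normalized counts over the Ce samples and from 1866 to 2033 over the St samples. The 95% interval of its log2 difference was -0.10 to 0.39 in the control line and -0.20 to 0.32 in the selected line. Hapln2 ranged from 789 to 1174 in the Ce and from 649 to 1323 in the St, with intervals of -0.09 to 0.58 in the control line and -0.36 to 0.37 in the selected line. For Hapln2 in the control line the result depended on which samples shared the estimate of spread, since a fit of the CeCo and StCo samples alone gave a log2 difference of 0.25 with a limma adjusted p of 0.0288, the adjusted p over its alternatives ranging from 0.0288 to 0.335.

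Hapln3 was counted at 5 to 35 fragments per sample and was left out of the test by the filter. It stood at 4.66, 12.5, 5.97 and 11.6 normalized counts in CeCo, 7.57, 5.27, 10.2 and 14.8 in CeHi, 11.1, 34.6, 33.6 and 22.9 in StCo, and 16.9, 25.2 and 27.3 in StHi. The control line overlapped between regions and the selected line did not. Under the lower filter, a value of 0.1 in 3 samples, its log2 difference, Ce minus St, was -1.42 ± 0.39 in the control line (limma adjusted p = 0.00365) and -1.24 ± 0.42 in the selected line (limma adjusted p = 0.0159).

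**Figure D2:**
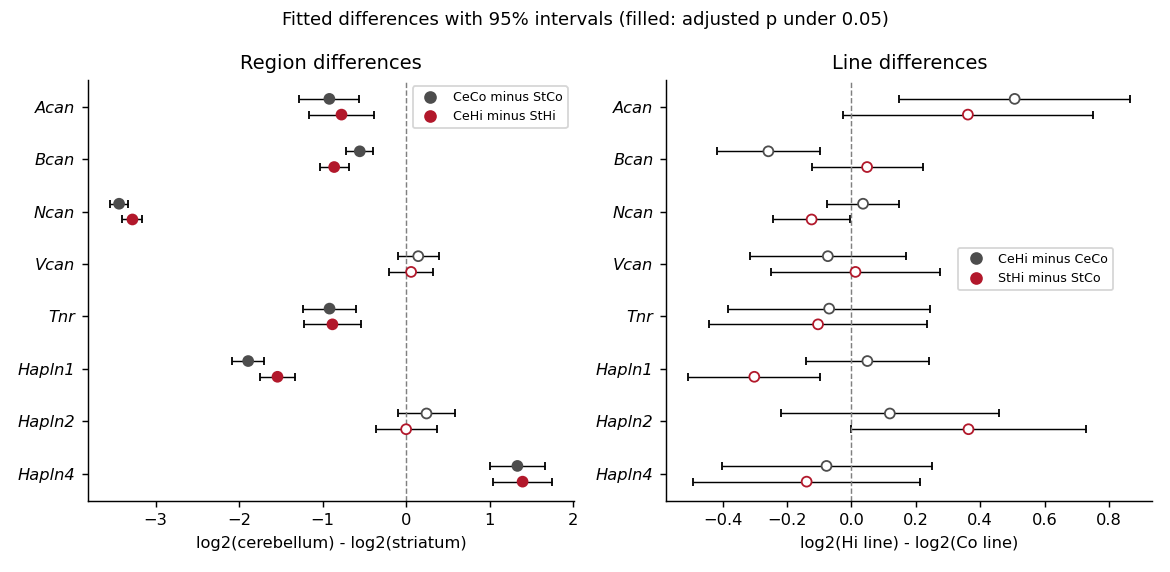
Fitted log2 differences (horizontal axis) of the 8 tested genes with 95% intervals, Ce minus St in each line on the left and Hi minus Co in each region on the right, filled where the adjusted p was under 0.05. On the left 6 genes are filled in both lines, from -3.44 for Ncan to 1.33 for Hapln4 in the control line, and on the right none is filled.

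The regional differences changed the makeup of each family as well as its amount. Summed over the 4 lecticans, the level was 1753 ± 68.6 normalized counts per kilobase in CeCo and 3326 ± 162 in StCo (SD, n = 4 each). Bcan made up 86.0% ± 0.81 of it in CeCo and 66.4% ± 2.28 in StCo, while Ncan made up 5.10% ± 0.12 and 29.2% ± 2.04. Vcan made up 8.45% ± 0.93 and 4.0% ± 0.28, although its own level did not pass the region test. Acan was 0.42% of the sum in both. In the selected line Ncan made up 6.14% ± 0.85 in CeHi and 26.7% ± 0.57 in StHi.

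The sum over the 4 link proteins ran opposite to that of the lecticans, at 2476 ± 69.3 normalized counts per kilobase in CeCo and 1353 ± 136 in StCo. Hapln4 made up 82.8% ± 1.03 in CeCo and 60.2% ± 3.78 in StCo, and Hapln1 made up 2.40% ± 0.08 and 16.5% ± 2.81. In the selected line Hapln4 made up 80.8% ± 2.14 in CeHi and 55.6% ± 4.66 in StHi. These shares are descriptions without a test, and the share of Ncan moved with the transcript length used, as given further on.

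**Figure D3:**
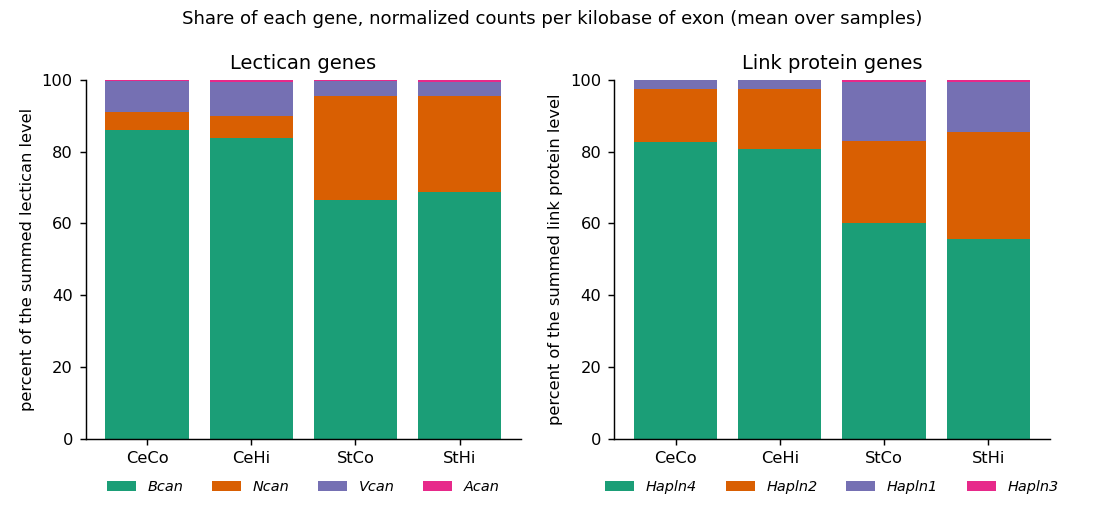
Mean share (vertical axis, percent) of each gene in the summed level per kilobase of the 4 lectican genes (left) and the 4 link protein genes (right) in the 4 groups. Ncan takes 5.10% of the lectican sum in CeCo and 29.2% in StCo, and Hapln1 takes 2.40% of the link protein sum in CeCo and 16.5% in StCo.

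Several cell type markers differed between the regions together with these genes. Over all tested genes, 36.9% in the control line and 35.1% in the selected line were higher in the St. Higher in the Ce were 37.8% and 35.4%. The counts of this paragraph and the next stand beside these shares. Of 8 oligodendrocyte precursor markers, 7 were higher in the St in both lines and 1, Bmp4, did not pass. They summed to between 6447 and 8182 normalized counts in the Ce samples and between 15270 and 21781 in the St samples. Of 10 astrocyte markers, 6 were higher in the Ce in both lines, among them S100b, Aqp4 and Aldoc, and 2, Slc1a2 and Fgfr3, were higher in the St. All 8 meningeal fibroblast markers were higher in the Ce, and 7 of 8 cortical markers were higher in the St. Among 8 choroid plexus markers, 4 were higher in the Ce in the control line and 1 in the selected line. Of 8 endothelial markers, 1 passed in each line, in opposite directions. Their part in the differences above was not tested, and in RNA from whole regions fewer cells of a type and less RNA per cell cannot be told apart.

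Markers of fast-spiking neurons, which nets often surround, were split. Of the 7 tested, 3 were higher in the Ce (Pvalb, Syt2 and Kcnc1) and 4 in the St. Pvalb, also a gene of Purkinje cells and molecular layer interneurons, averaged 22164 ± 791 normalized counts in CeCo and 829.7 ± 125 in StCo (SD, n = 4 each). Among the genes listed as markers of large deep nuclear and brainstem neurons, 4 of 6 were higher in the Ce. Slc6a5 differed the most of them, by 7.91 and 8.74 on the log2 scale. The others, among them the glutamatergic marker Slc17a6, did not pass. Markers of mature oligodendrocytes were higher in the St for 5 of 10 genes in the control line and 8 of 10 in the selected line.

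The other genes of the matrix pathway were examined by role, and the counts stand beside the 36.9% and 35.1% of all tested genes that were higher in the St and the 37.8% and 35.4% that were higher in the Ce. Of 3 tested genes of hyaluronan synthesis, Has1 and Has3, which polymerize hyaluronan, were higher in the St in both lines and Ugdh, which makes one of its sugar precursors, was higher in the Ce. Has1 had a log2 difference, Ce minus St, of -1.73 ± 0.21 in the control line (limma adjusted p = 9.26e-07) and -2.05 ± 0.23 in the selected line (limma adjusted p = 3.58e-07). For Ugdh the values were 0.19 and 0.18.

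Among 21 tested genes of chondroitin sulfate synthesis and sulfation, 13 were higher in the St and 6 in the Ce in each line, and 2 did not pass. Chsy3, a chondroitin polymerizing enzyme, averaged 15.6 normalized counts in CeCo and 756 in StCo, a log2 difference of -5.65 in the control line and -4.85 in the selected line. Dsel, related to the epimerase that makes dermatan sulfate, differed by -2.14 and -2.21, and Xylt1, which starts the chains, by -1.32 and -1.04. Higher in the Ce were Ust, which sulfates uronic acid residues, at 1.07 and 1.12, and the sulfotransferases Chst7 and Chst14 at 0.69 and 0.88 in the control line. The median over the list was -0.49 in the control line and -0.38 in the selected line.

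Of 14 tested proteases and hyaluronan-degrading enzymes, 6 were higher in the Ce and 1 in the St in each line, the former count being near the 37.8% and 35.4% of all tested genes that were higher in the Ce. Adamts15 and Adamts1, both metalloproteases that can cut lecticans, had log2 differences of 2.60 and 1.78 in the control line and 1.93 and 1.58 in the selected line. The gene listed as 9930013L23Rik, an earlier name of the hyaluronan-degrading Cemip, was higher in the Ce by 1.43 and 1.67. Adamts20 was lower in the Ce, by -0.49 and -0.84. Of 5 protease inhibitors tested, A2m (5.60 and 4.93) and Timp4 (3.01 and 2.74) were higher in the Ce, and Timp2 (-2.66 and -2.50) and Reck (-0.31 and -0.36) in the St.

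Of 17 tested partners and receptors, 6 were higher in the Ce in each line and 9 in the St in the control line and 8 in the selected line. Tnc, encoding the tenascin related to Tnr, was higher in the Ce by 3.36 and 3.52 on the log2 scale, opposite to Tnr. Otx2, a homeodomain protein also listed among choroid plexus markers, was higher in the Ce by 3.83 and 3.36, and the Nogo receptor gene Rtn4r by 0.38 and 0.83. Rtn4rl2, a related receptor of chondroitin sulfate proteoglycans, averaged 5.33 normalized counts in CeCo and 574 in StCo. Nptx2, the neuronal pentraxin, differed by -5.51 and -4.25, and the integrin gene Itga9 by -3.02 and -3.14.

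**Figure D4:**
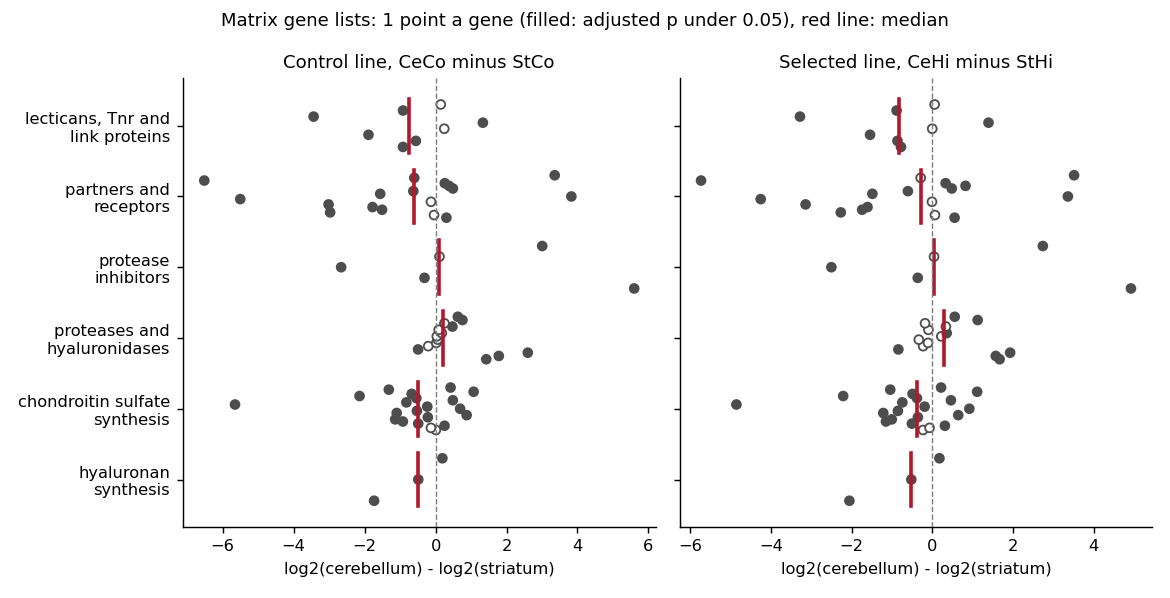
Log2 difference, Ce minus St (horizontal axis), of every tested gene in 6 matrix gene lists, in the control line (left) and the selected line (right), with 1 point a gene, filled where the adjusted p was under 0.05, and a red line at the median of the list. The medians in the control line run from -0.74 for the lecticans, Tnr and link proteins to 0.21 for proteases and hyaluronidases.

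The genes whose values over the 15 samples were most like those of a member were sought for the 3 tested members that differed by more than 1 on the log2 scale in both lines. Likeness was the root mean square difference of log2 values after subtracting the mean of each gene. For Ncan the nearest were LOC100861688 (0.092), Pld3 (0.095) and Plk2 (0.10). Those for Hapln1 were Cdh11 (0.11), Cdkl2 (0.12) and B3gat1 (0.12). For Hapln4 they were Prr13 (0.14), Bend6 (0.15) and Tmem151b (0.15). Each nearest gene shared the regional difference of its own member, which follows from how it was chosen.

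Lines were then compared within each region, the question of the selection experiment, with lines as labelled. None of the 8 genes passed in CeHi–CeCo or in StHi–StCo, against 5.94% and 2.66% of all tested genes (limma, adjusted p under 0.05). At an unadjusted p under 0.05 there were 2 of the 8 in each region, against 19.7% of all tested genes in CeHi–CeCo and 14.1% in StHi–StCo, so this count is near the background. edgeR on the recovered fragments called none in either region, whereas DESeq2 called Bcan in CeHi–CeCo.

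In the Ce, the samples of the 2 lines did not overlap for 3 of the 8 genes, Acan, Bcan and Hapln4, and 13.3% of all tested genes showed such a separation. Acan averaged 55.4 ± 10.6 normalized counts in CeCo and 78.6 ± 4.64 in CeHi (SD, n = 4 each). Its log2 difference, Hi minus Co, was 0.51 with a 95% interval of 0.15 to 0.87 and a limma adjusted p of 0.0945, which ranged from 0.0688 to 0.229 over 26 alternatives. The difference was in the direction of the selected line in each of them.

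Bcan averaged 6127 ± 197 in CeCo and 5168 ± 585 in CeHi (SD, n = 4 each). Its log2 difference was -0.26 with an interval of -0.42 to -0.10 and a limma adjusted p of 0.0538. It passed under 4 of 26 alternatives, with adjusted p between 0.0246 and 0.148. It passed with DESeq2 (0.0246), with the replicate number as a block (0.043), without CeHi replicate 2 (0.0328) and without StCo replicate 2 (0.0405). The replicate block also joined same-numbered CeCo and CeHi samples, which are different mice and whose deviations correlated at -0.2207 to 0.1833. Without the lowest CeHi sample, replicate 1 at 4433, the difference was -0.18 (limma adjusted p = 0.148).

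Hapln4, although separate between the lines in the Ce, differed little in size, with a log2 difference of -0.077 (95% interval -0.40 to 0.25, limma adjusted p = 0.83). That interval rests on the spread pooled over all groups, and is not the spread of the Ce samples alone. The coefficient of variation of Hapln4 was 2.91% in CeCo and 2.48% in CeHi, against 34.8% in StHi. Over the alternatives its adjusted p ranged from 0.403 to 0.909. The remaining 5 genes overlapped, with log2 differences from -0.073 for Vcan to 0.12 for Hapln2. Hapln3, under the lower filter, had a log2 difference of 0.13 ± 0.39 (limma adjusted p = 0.915).

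In the St, Ncan was the single gene of the 8 whose lines did not overlap, and 13.1% of all tested genes were so separated. Its log2 difference, Hi minus Co, was -0.12 with a 95% interval of -0.24 to -0.0036 (limma adjusted p = 0.338). Hapln1 was also lower in StHi, at 1061 ± 122 normalized counts (SD, n = 3) against 1303 ± 145 in StCo (SD, n = 4), a log2 difference of -0.30 with an interval of -0.51 to -0.10. Its limma adjusted p was 0.124 and ranged from 0.05 to 0.379 over the alternatives.

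A single St library stood apart in several of these values. StHi replicate 0 had the highest value of the 7 St samples for Acan (171), Hapln2 (1323) and Hapln4 (4183). The same library had 2105 normalized counts of Pvalb, against 668 to 1003 in the other St samples. For the glutamatergic marker Slc17a6 it had 2284, the other StHi samples 1796 and 1794, and the StCo samples 551 to 1202. Every StHi sample was thus above every StCo sample for Slc17a6, and by a small margin for Pvalb, although neither gene passed between lines. Summed over all fast-spiking markers StHi replicate 0 had 56523, against 47194 to 56113. That list as a whole thus did not stand apart as Pvalb did. Markers of large deep nuclear and brainstem neurons summed to 19794 in that library, against 12172 to 17294. Without it the log2 difference, Hi minus Co, moved from 0.36 to 0.19 for Acan (limma adjusted p = 0.775), from 0.36 to 0.12 for Hapln2 (0.826) and from -0.14 to -0.40 for Hapln4 (0.0619). The part of these neurons in the values was not tested.

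Oligodendrocyte markers separated the lines in the St and stand beside Hapln2, a gene of nodes of Ranvier. The 10 mature markers summed to between 207970 and 300789 normalized counts in StCo and between 319287 and 361157 in StHi, although none passed the test alone. Hapln2 was measured at 865, 649, 679 and 727 in StCo and at 1323, 796 and 782 in StHi. Apart from replicate 0, the StHi samples lay within the StCo range for Hapln2. Cortical markers went the other way in part, Tbr1 ranging from 3090 to 4697 in StCo and from 1857 to 3897 in StHi, and their part in the lower Ncan and Hapln1 was not tested.

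**Figure D5:**
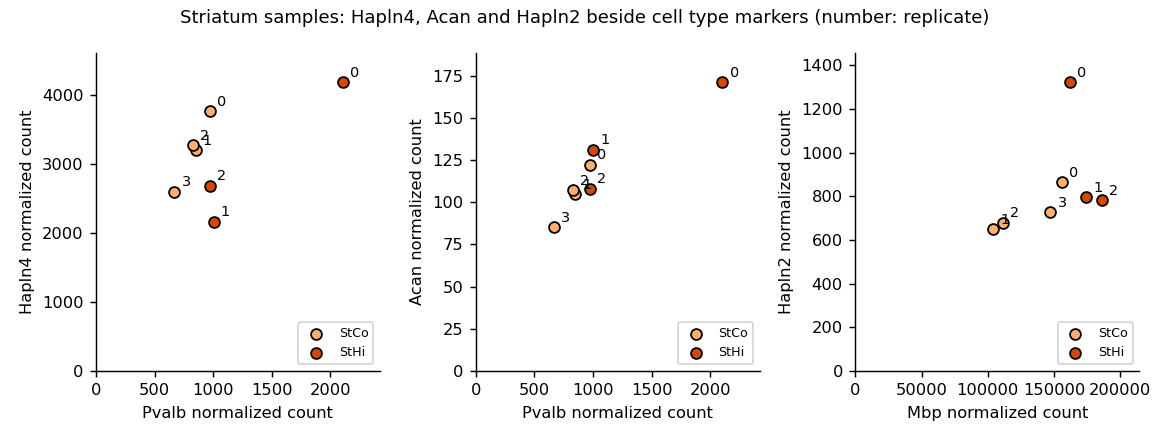
Normalized counts of Hapln4 and Acan against Pvalb, and of Hapln2 against Mbp, in the 7 St samples, each point 1 sample with its replicate number. StHi replicate 0 lies apart at a Pvalb count of 2105, an Acan count of 171 and a Hapln2 count of 1323, while its Mbp count of 161775 is the lowest of the 3 StHi samples.

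Whether the line difference itself differed between the Ce and St was tested by the interaction. None of the 8 genes passed, against 0.532% of all tested genes. edgeR and DESeq2 also called none, and 2 of the 8 were at an unadjusted p under 0.05, as were 9.56% of all tested genes. Bcan had a log2 interaction of -0.31 (95% interval -0.54 to -0.07, limma adjusted p = 0.326) and Hapln1 of 0.35 (interval 0.07 to 0.63, limma adjusted p = 0.353).

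Among the other matrix genes, a line difference passed in the Ce for 4 of the 60 tested, near the 5.94% of all tested genes, and in the St for none, against 2.66%. Nptx2, a pentraxin that binds synaptic glutamate receptors and is found in nets, averaged 40.1 normalized counts in CeCo and 102 in CeHi, a log2 difference of 1.29 ± 0.19 (SE, limma adjusted p = 0.000366). Crtac1, which antagonizes the Nogo receptor, was higher by 0.50 (268 and 386 normalized counts, limma adjusted p = 0.0384). Fam20b, the xylose kinase of chain synthesis, was higher by 0.29, at 3014 and 3708 (limma adjusted p = 0.0136). Adamts20 fell by 0.47 on the log2 scale, from 349 normalized counts in CeCo to 253 in CeHi (limma adjusted p = 0.0072). None of the 60 passed the interaction test, so a difference between the regions is not shown for these 4 genes. Nptx2 was the closest of the 4, with a log2 interaction of 1.25 ± 0.27 (SE, limma adjusted p = 0.0551) and a line difference of 0.04 in the St. Crtac1 followed at 0.71 (limma adjusted p = 0.157).

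Of the cell type markers, Spp1 and Olig1 were higher in both regions in the samples labelled as the selected line. Spp1, a secreted phosphoprotein listed among markers of large brainstem neurons, differed, Hi minus Co, by 1.16 on the log2 scale in the Ce and by 2.12 on that scale in the St. For Olig1, a transcription factor of the oligodendrocyte lineage, they were 0.30 and 0.43. Col3a1, a meningeal collagen, was lower in CeHi by -0.86, and Cbln1, a cerebellar gene that was low in the St, was higher in StHi by 0.51 and also passed the interaction test. Endothelial, astrocyte, fast-spiking, choroid, striatal and cortical markers held no gene that passed between lines, and the 14 hindbrain markers were too low to be tested.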

How the data were processed

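The authors aligned read pairs against GRCm38 (TopHat2) and corrected the counts per gene for library size in Cuffnorm 2.2.1. The annotation and strand setting are not given in the sources used here. The deposited values, named FPKM, are a signal in which fragment counts were divided by a sample-wide factor but not by gene length: 99.3% to 99.7% of low values were whole multiples of 1 fragment, within 0.02 fragments. Samples held 32909375 to 47485531 fragments, and tests cover counting error and the spread between samples.

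Values were scaled by trimmed mean of M-values (scales 0.9926 to 1.0084) and log2 transformed with a pseudocount of 1. Genes with a CPM of at least 1 in 3 samples (15213 of 26628) were fitted with 4 group means in limma 3.58.1 (R 4.3.3, trend and robust), with Benjamini-Hochberg adjustment. edgeR 4.0.16, DESeq2 1.42.0, other scalings, filters, blocks, weights and each sample left out were alternatives. In simulated CeHi–CeCo data of 15213 genes, 69% of changes of 0.5 and 90% of changes of 1 on the log2 scale were recovered, with 3.05% of calls false.

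Most genes named besides the 9 passed a line or interaction test, had one of the 3 largest regional differences of a list in a direction, or were nearest in pattern. Slc17a6 and Mbp met none of these rules and were picked by hand from the marker lists. Bmp4 is named as the precursor marker that did not pass. Members and lists were chosen with earlier results of these data known. Deviations of same-numbered CeCo and StCo samples correlated at 0.1713 to 0.2782 over 4 pairs, and those of CeHi and StHi at -0.0751 to 0.0513 over 3. Differently numbered samples were not compared, so it was not established that the number pairs samples of the same mouse. The values given come from the fit without a block, and the blocked fit was an alternative.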

Additional observations from a re-analysis of the deposited data

How the results depend on the processing

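All 12 regional calls, 6 genes in each line, kept their direction and stayed under an adjusted p of 0.05 in each of 27 alternatives. In the Ce, 1 gene, Bcan, was called in CeHi–CeCo instead of 0 with DESeq2, with the replicate block (adjusted p = 0.043), without CeHi replicate 2 and without StCo replicate 2, so the count ranged from 0 to 1 with single samples left out. The replicate block changed no other call among the 8 tested genes. Same-numbered samples did not deviate together in CeHi and StHi (-0.0751 to 0.0513 over 3 pairs), in CeCo and CeHi (-0.2207 to 0.1833 over 4) or in StCo and StHi (-0.0432 to 0.1961 over 3). Over all genes, DESeq2 called 1389 in CeHi–CeCo against 903, 709 in StHi–StCo against 405 and 277 in the interaction against 81. Sample quality weights called 740 in StHi–StCo and 182 in the interaction, which held 42 to 117 calls with single samples left out.

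With the longest transcript as length, Ncan made up 4.03% of the lectican sum in CeCo and 4.87% in CeHi, and 24.3% in StCo and 22.1% in StHi, the share of each group moving by more than its SD, because the longest Bcan transcript is shorter than its merged exons.

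The direction changed in 31 of 1056 settings of single genes, and in none of the called differences. Hapln2 in CeHi–StHi (0.0006) was -0.0049 with median of ratios, -0.0239 with edgeR, -0.0315 with DESeq2 and -0.0007 with its own groups alone. Vcan was 0.0446 in CeHi–CeCo and 0.0391 in the interaction with weights, 0.0347 in the interaction with the replicate block within line, and -0.0457 in StHi–StCo with the replicate block. The cause was not tested. With single samples left out, the log2 differences that changed sign ranged as follows. In CeHi–StHi the range was -0.0331 to 0.1789 for Vcan and -0.1306 to 0.2492 for Hapln2. In CeHi–CeCo it was -0.1631 to 0.0489 for Vcan, -0.1824 to 0.0204 for Tnr, -0.0062 to 0.065 for Ncan and -0.0034 to 0.0882 for Hapln1. In StHi–StCo it was -0.0199 to 0.0306 for Vcan, -0.2399 to 0.028 for Tnr and -0.4047 to 0.071 for Hapln4. In the interaction it was -0.0972 to 0.1707 for Tnr, -0.1833 to 0.0288 for Vcan, -0.1483 to 0.3275 for Hapln4, -0.3755 to 0.0042 for Hapln2 and -0.0115 to 0.3194 for Acan.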
